A study of Zea mays with 12 samples.

Results

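The peroxisome and fatty acid beta-oxidation genes of maize were followed through the last day of the persistent synergid cell, a cell beside the egg cell that is removed after fertilization. The set was chosen on gene descriptions alone: a gene entered it when its description named the peroxisome, the glyoxysome, a peroxin, an acyl-coenzyme A oxidase, a 3-ketoacyl-CoA thiolase, isocitrate lyase or malate synthase, and it held 126 of the 45246 genes and loci in the tables. The rule used no measured value, though the set was proposed with earlier results of these data known. Cells of the inbred line B73 were isolated by hand at 4 stages: synergids from unpollinated ovules (SC, 0 hours after pollination, HAP) and the persistent synergid after 12 HAP (pSC12), after 18 HAP (pSC18) and after 24 HAP (pSC24). All cells carried the same genotype and no transgene or treatment was named in the labels. Each stage had 3 libraries of polyadenylated RNA from 25 to 28 pooled cells, amplified before sequencing.

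Peroxisomes are organelles bounded by a single membrane in which plants break down fatty acids by beta-oxidation. Acyl-CoA synthetases activate the fatty acid, acyl-CoA oxidases carry out the oxidation and release hydrogen peroxide, multifunctional proteins hydrate the product and oxidize it again with NAD, and thiolases cut off acetyl-CoA. In germinating oilseeds the acetyl-CoA enters the glyoxylate cycle, and peroxisomes then go by the name of glyoxysomes. Peroxins build the organelle and import its proteins, while catalase and an ascorbate system remove hydrogen peroxide.

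The labelled cell type was checked against its markers. ZmES4, a synergid defensin-like gene, was between 6018 and 13051 FPKM (fragment counts scaled to gene length and library depth) in all 12 libraries, and ZmMYB98, a synergid transcription factor, had 59.7, 55.2 and 179 FPKM in pSC24, against 1048, 1205 and 1106 FPKM in SC. The 2 genes for egg cell-secreted protein 1 summed to between 42.8 and 119 FPKM in pSC24, against 172 to 428 FPKM in SC, and the 38 chlorophyll-binding and Rubisco small subunit genes to between 19.8 and 21.4 FPKM in pSC24, against 21.8 to 23.5 FPKM in SC. The 429 cytosolic ribosomal protein genes summed to between 9508 and 9863 FPKM in pSC24, against 8059 to 9042 FPKM in SC, and the part of neighbouring cells in the results was not tested. Libraries held between 15435736 and 26539602 counts. By the read statistics of the study, SC, pSC18 and pSC24 replicate 1 had a lower share of mapped reads than pSC12 and pSC24 replicates 2 and 3, so that pSC12 cannot be told apart from that difference, and pSC24 can be compared within the lower set through 1 library only. Scaling by total counts in place of trimmed mean of M values (TMM) moved the median log2 fold change of all tested genes to 0.27 for pSC12 over SC, 0.28 for pSC24 over SC and 0.25 for pSC18 over SC, against -0.01, 0.05 and 0.05 under TMM. In pooled cells, less RNA per cell and fewer cells with the transcript cannot be told apart.

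Most genes of the set were transcribed in these cells. Of the 126 genes, 83 had a mean above 1 FPKM in at least 1 stage, 50 above 10 FPKM and 9 above 100 FPKM. The remaining genes included 16 with 0 counts in all 12 libraries. The test was run on the 94 genes with enough counts among 21143 tested genes, and the highest mean among the 32 genes that were not tested was 0.0782 FPKM. Over the 94, the stage with the highest mean was pSC24 for 35 genes, SC for 26, pSC18 for 19 and pSC12 for 14. Summed over the whole set, the level was 2222, 2571 and 2628 FPKM in the pSC24 libraries (lowest, median and highest), against 2625, 2721 and 2752 FPKM in SC, so that the ranges met only at their ends.

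A minority of the set passed the test, and most of the calls involved pSC24. A gene was called when edgeR's quasi-likelihood test with Benjamini-Hochberg adjustment over all tested genes gave an adjusted p under 0.05 and the log2 fold change exceeded 1 in size. In pSC24 against pSC18, 8 of the 94 tested genes were called higher (8.51%), beside 4.82% of all tested genes, and 0 were called lower, beside 3.26% of all. The 0 came from edgeR, while DESeq2 called 2 on 12 libraries and 0 on 6, beside 940 and 727 of all genes. At an unadjusted edgeR p under 0.05, 16 of the 94 were lower, beside 3056 of all 21143 tested genes. In pSC24 against SC, 7 were called higher (7.45%), beside 10.3% of all tested genes, and 7 were called lower, beside 7.57% of all, so that both shares lay near or under the background. The split depended on scaling, with 15 higher and 2 lower in pSC24 than in SC when libraries were scaled by total counts. All tested genes then had 2911 higher and 1118 lower, against 2170 and 1600 with TMM. With a term for the mapping-share set the 8 genes became 4, and all tested genes called higher than in pSC18 went from 1019 to 403. Only pSC24 has libraries in both mapping-share sets, so this term is set by its replicate 1 against replicates 2 and 3. Its values for pSC24, like those of a fit within the lower set, rest on that 1 pSC24 library. These fits are not separate checks where both are given below. The lower mapping-share set holds 1 pSC24 library, so no count of genes called in pSC24 is given from it. Without pSC24 replicate 3 the 8 genes against pSC18 became 5 and the 0 lower genes 1. All tested genes then went from 1019 to 686 higher and from 689 to 735 lower. Without pSC24 replicate 1, or without pSC24 replicate 2, the 7 lower genes against SC became 4. All tested genes called lower went from 1600 to 1531 and 1356.

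Earlier steps changed fewer of these genes. In pSC12 against SC, 0 were called higher, beside 1.62% of all tested genes, and 2 were called lower, beside 1.18% of all. The 0 came from edgeR and from DESeq2 on 12 or 6 libraries, where DESeq2 called 566 and 625 of all genes higher. At an unadjusted edgeR p under 0.05, 8 of the 94 were higher, beside 2097 of all 21143 tested genes. In pSC18 against pSC12, 0 were called higher and 0 lower by edgeR, beside 0.0189% and 0.00473% of all tested genes. At an unadjusted edgeR p under 0.05, 3 were higher and 3 lower, beside 1672 and 1001 of all tested genes. DESeq2 called 1 higher on 12 libraries and 0 on 6 libraries in that comparison, beside 339 and 252 of all genes. It called 0 lower on either, beside 88 and 101 of all genes. In pSC18 against SC, which lie in the same mapping-share set, 1 was called higher, beside 2.71% of all tested genes, and 2 lower, beside 1.60% of all. Total-count scaling gave 3 higher and 2 lower for pSC12 over SC, and 2 higher and 1 lower for pSC18 over SC. All tested genes then had 979 higher and 149 lower for pSC12 over SC, and 987 and 220 for pSC18 over SC. Without SC replicate 2 or pSC12 replicate 2 the 2 lower genes of pSC12 became 0, and without SC replicate 3 they became 1. All tested genes called lower went from 249 to 119, 120 and 129 in these fits. The 1 higher gene of pSC18 over SC (Zm00001eb126680) lost its call without SC replicate 2 or 3, or pSC18 replicate 1 or 2. The count became 0 in these fits except without SC replicate 2, where a different gene was called. All tested genes called higher went from 572 to 356, 341, 448 and 435, in the order named. The 2 lower genes became 1 without SC replicate 2, SC replicate 3 or pSC18 replicate 1, where all tested genes called lower went from 338 to 214, 234 and 277.

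The median of the tested genes of the set lay close to that of all tested genes. It was -0.02 for pSC24 over pSC18, beside -0.01 for all tested genes, and 0.06 for pSC24 over SC, beside 0.05 for all. For pSC12 over SC the median of the set was -0.19, beside -0.01 for all, with 34 of the 94 above 0. For pSC18 over SC it was -0.03, beside 0.05, and for pSC18 over pSC12 it was 0.05, beside 0.03. Comparisons with pSC24 share the pSC24 libraries, and comparisons over SC share the SC libraries, so their values are given side by side and not as separate evidence.

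**Figure D1:**
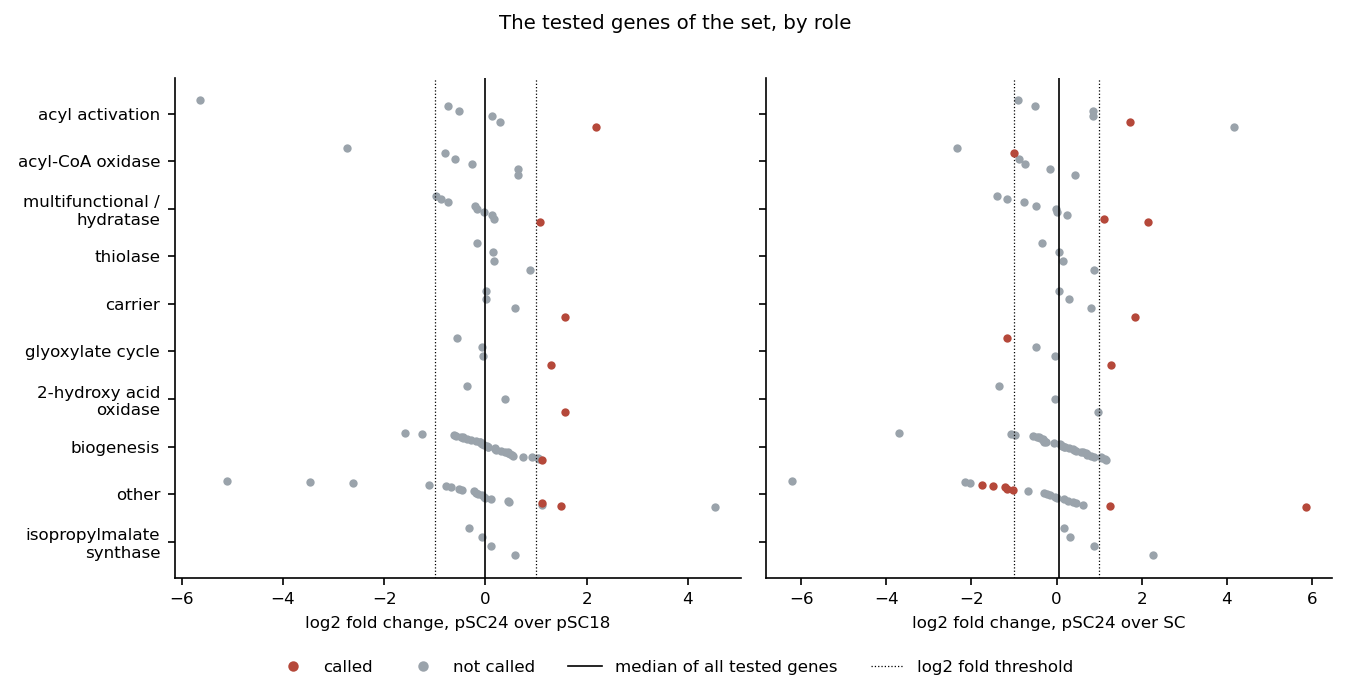
Log2 fold change of each of the 94 tested genes for pSC24 over pSC18 (left) and pSC24 over SC (right), with the genes grouped by role from top to bottom. Red points passed the test, grey points did not, the solid line marks the median of all tested genes and the dotted lines the fold threshold. The 8 red points on the left all lie above 1, while the right holds 7 on each side.

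Of 11 genes for fatty acid activation 6 were tested, and 1 was called. A gene described as long chain acyl-CoA synthetase 6 (Zm00001eb404990, chromosome 10, 1062847 to 1083260), which in Arabidopsis activates fatty acids at the peroxisome, had 1.60, 2.62 and 1.72 FPKM in SC, 1.18, 0.859 and 0.527 FPKM in pSC12, 0.627, 1.71 and 1.93 FPKM in pSC18, and 4.43, 3.63 and 11.8 FPKM in pSC24. All 3 pSC24 libraries were above the others, and replicate 3 stood far above the other two. The log2 fold change for pSC24 over pSC18 was 2.19 ± 0.53 (SE), edgeR adjusted p = 0.0162. Without pSC24 replicate 3 it was 1.49 (edgeR adjusted p = 0.0842), without pSC18 replicate 1 it was 1.87 (0.0504), within the lower mapping-share set it was 1.62 (0.205), and with a term for the set it was 1.63 (0.225), so the call was lost in each. Over SC it was 1.73 ± 0.52 (edgeR adjusted p = 0.0269), and that call was lost without SC replicate 1 (1.61, 0.0887), SC replicate 3 (1.65, 0.0860) or pSC24 replicate 3 (1.02, 0.171), within the lower mapping-share set (1.16, 0.269) and with a term for the set (1.16, 0.306).

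The other gene with the same description, Zm00001eb196590, was the highest of the role. It had 8.01, 7.64 and 14.0 FPKM in pSC24, against 12.3, 13.2 and 16.7 FPKM in pSC18 and 10.7, 16.5 and 14.8 FPKM in SC. These ranges overlapped, and the log2 fold change for pSC24 over SC was -0.52 ± 0.24 (edgeR adjusted p = 0.142). An acetyl-coenzyme A synthetase (Zm00001eb242380), which activates acetate, had 6.69, 7.57 and 8.34 FPKM in pSC24, against 13.2, 12.3 and 12.1 FPKM in pSC18 and 13.5, 15.3 and 13.2 FPKM in SC. The groups did not overlap. Its log2 fold change was -0.75 ± 0.17 over pSC18 (edgeR adjusted p = 0.0120) and -0.90 ± 0.17 over SC (edgeR adjusted p = 0.00177), past the adjusted p and short of the fold threshold. The other 3 tested genes of the role had adjusted p between 0.165 and 0.873 for pSC24 over pSC18 or SC. The FPKM ratio of Zm00001eb404990 to Zm00001eb196590 was 0.553, 0.475 and 0.841 in pSC24, and between 0.0365 and 0.158 in the 9 other libraries. This and the other ratios below were chosen after the values were seen and are given with no test.

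Acyl-CoA oxidases, the enzymes of the oxidation that commits a fatty acid to the cycle, were lower at 24 HAP in sum, and their medians were below 0. Of 11 genes 6 were tested, with a median log2 fold change of -0.43 for pSC24 over pSC18 and -0.81 for pSC24 over SC, beside -0.01 and 0.05 for all tested genes. Summed FPKM was between 182 and 198 in pSC24, against 263 to 301 in pSC18 and 309 to 336 in SC. Most of this sum was a single gene, described as acyl-coenzyme A oxidase 1 (Zm00001eb376020, chromosome 9, 18962006 to 18968292). Its level was 227, 241 and 224 FPKM in SC, 197, 186 and 184 FPKM in pSC12, 233, 216 and 199 FPKM in pSC18, and 126, 123 and 128 FPKM in pSC24. The pSC24 libraries lay below all 9 others. Its log2 fold change was -0.80 ± 0.09 for pSC24 over pSC18 (edgeR adjusted p = 0.000197) and -0.89 ± 0.09 for pSC24 over SC (edgeR adjusted p = 2.00e-05), past the adjusted p and short of the fold threshold.

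A second gene for acyl-coenzyme A oxidase 1 (Zm00001eb379490) had 10.4, 11.1 and 15.5 FPKM in pSC24, against 22.5, 28.6 and 23.0 FPKM in SC, with no overlap. It fell by 1.01 on the log2 scale (SE 0.19, edgeR adjusted p = 0.00202), right at the fold threshold. Its size slipped to between 0.87 and 0.99 without SC replicate 2 (-0.87), pSC18 replicate 1 (-0.99), pSC18 replicate 2 (-0.99), pSC24 replicate 1 (-0.91) or pSC24 replicate 2 (-0.94), and to -0.79 under total-count scaling. It lay just inside 1 in size with DESeq2 on 12 libraries (-0.998), with DESeq2 size factors (-0.999) and with edgeR on 6 libraries (-0.99). Adjusted p stayed at or under 0.0110 in all leave-one-out fits, and within the lower mapping-share set the log2 fold change was -1.25.

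The gene described as acyl-coenzyme A oxidase 2 (Zm00001eb167230), an oxidase of long-chain substrates in Arabidopsis, had its lowest level at 12 HAP. It had 15.6, 19.0 and 14.2 FPKM in SC, 7.5, 5.45 and 6.84 FPKM in pSC12, 11.4, 6.91 and 9.95 FPKM in pSC18, and 11.6, 11.4 and 21.4 FPKM in pSC24. The pSC12 libraries did not overlap with SC, and it fell by 1.29 in pSC12 against SC on the log2 scale (SE 0.27, edgeR adjusted p = 0.0158). The call was lost without SC replicate 2 (-1.18, 0.0613), without pSC12 replicate 2 (-1.18, 0.0737) and with a term for the mapping-share set (-1.78, 0.137). For pSC24 over SC its log2 fold change was -0.15 ± 0.26 (edgeR adjusted p = 0.724). Acyl-coenzyme A oxidase 4 (Zm00001eb282120), a short-chain oxidase in Arabidopsis, had 10.9, 13.2 and 16.2 FPKM in pSC24, against 7.57, 11.3 and 6.71 FPKM in pSC18, a log2 fold change of 0.64 ± 0.28 that did not pass (edgeR adjusted p = 0.147). Its FPKM ratio to Zm00001eb376020 was between 0.0867 and 0.127 in pSC24, and between 0.0268 and 0.0524 in the other libraries.

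**Figure D2:**
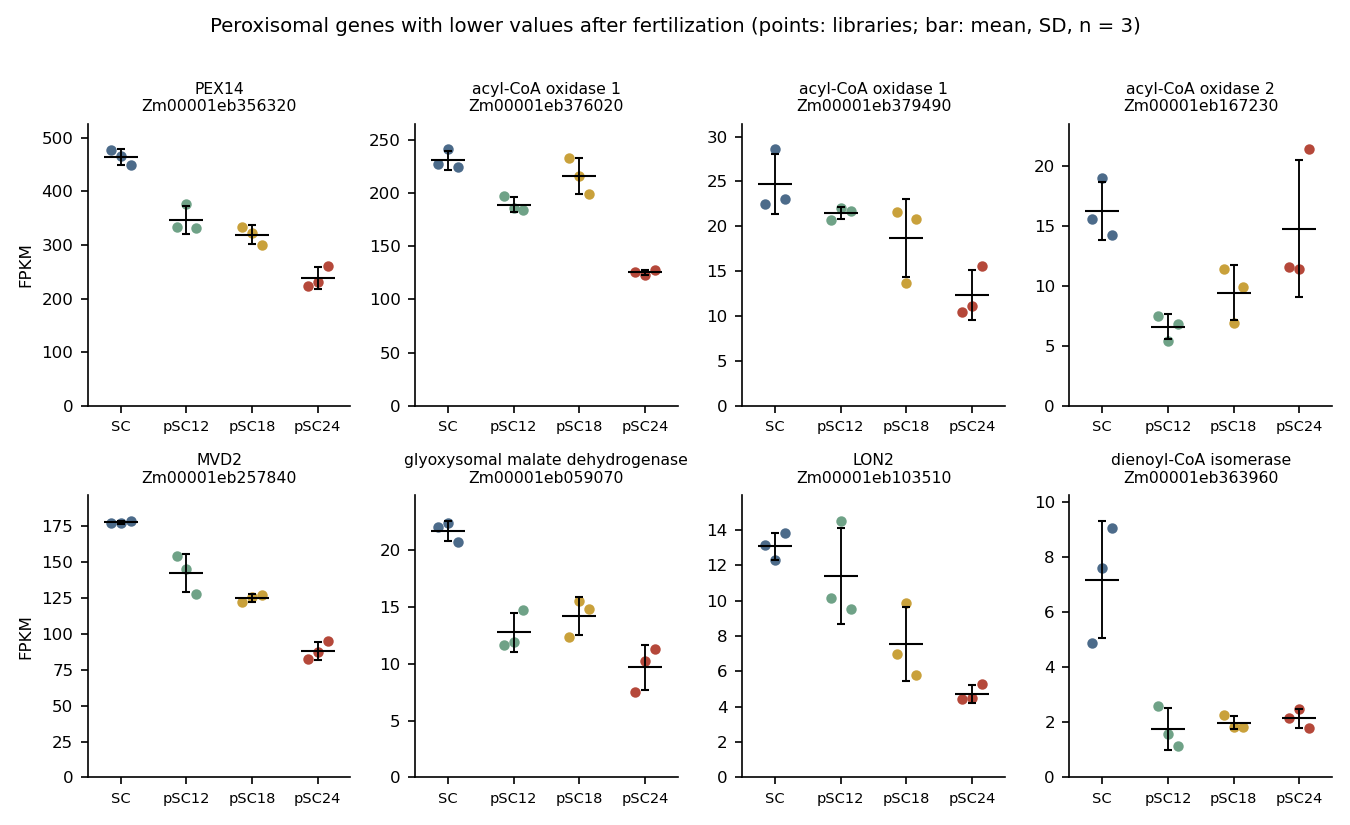
FPKM in each of the 12 libraries (points), with mean and SD (n = 3) as bars, for 8 genes of the set with lower values after fertilization; stages run from SC to pSC24 and each y axis starts at 0. The highest acyl-CoA oxidase 1 gene stays between 184 and 241 FPKM until 18 HAP and lies at 123 to 128 FPKM in pSC24, whereas the isomerase is low in all 9 libraries after pollination.

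The multifunctional proteins, which carry hydratase and dehydrogenase activities in a single chain, showed no called change between stages at their main genes. The MFP-a gene Zm00001eb340720 had 78.1, 87.2 and 85.6 FPKM in pSC24, against 78.5, 77.8 and 64.3 FPKM in pSC18 and 81.5, 86.0 and 81.7 FPKM in SC. Zm00001eb203470 had 54.3, 67.5 and 60.7 FPKM in pSC24, against 78.0, 66.7 and 62.5 FPKM in pSC18. Ranges overlapped for both, which are named because they led the multifunctional proteins by level. A low locus without an annotated gene, matched by its description (chromosome 3, 200016211 to 200020844), had 2.22, 0.994 and 1.09 FPKM in pSC24, against 0.208, 0.637 and 0.115 FPKM in SC. It rose by a log2 fold change of 2.15 ± 0.70 (edgeR adjusted p = 0.0368), and the call was lost without SC replicate 1 (1.95, 0.12), SC replicate 3 (1.78, 0.119) or pSC24 replicate 1 (1.69, 0.130). It was 2.79 (0.0721) within the lower mapping-share set.

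Enoyl-CoA hydratase 2 (Zm00001eb104070, chromosome 2, 203430949 to 203439768), which in Arabidopsis serves the breakdown of unsaturated fatty acids, was higher at 24 HAP. It had 23.3, 21.0 and 23.2 FPKM in SC, 17.3, 21.9 and 21.4 FPKM in pSC12, 22.8, 25.5 and 20.6 FPKM in pSC18, and 38.5, 54.4 and 53.5 FPKM in pSC24. The 9 earlier libraries lay between 17.3 and 25.5 FPKM, and pSC24 replicate 1 was the lowest of its stage. The log2 fold change was 1.08 ± 0.16 for pSC24 over pSC18 (edgeR adjusted p = 0.00119) and 1.1 ± 0.16 for pSC24 over SC (edgeR adjusted p = 0.000323). Within the lower mapping-share set the values were 0.73 (0.0792) and 0.77 (0.0322), under the fold threshold, with a term for the set they were 0.74 (0.0447) and 0.77 (0.0167), and the first fell just short of it without pSC18 replicate 3 (0.996) or pSC24 replicate 2 (0.989).

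The probable enoyl-CoA hydratase 1 (Zm00001eb014890), among the 5 highest genes of the set, had 139, 155 and 162 FPKM in SC, 91.4, 91.7 and 100.03 FPKM in pSC12, 80.3, 101 and 89.9 FPKM in pSC18, and 91.5, 88.5 and 90.1 FPKM in pSC24. SC was above every later library, and the later stages overlapped. Its log2 fold change of pSC12 over SC was -0.68 ± 0.11 (edgeR adjusted p = 0.00550) and that of pSC24 over SC -0.77 ± 0.11 (edgeR adjusted p = 0.000311), both short of the fold threshold. The FPKM ratio of hydratase 2 to hydratase 1 was 0.421, 0.615 and 0.595 in pSC24, 0.284, 0.252 and 0.229 in pSC18, and 0.168, 0.136 and 0.143 in SC.

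Thiolases, which cut acetyl-CoA from the shortened chain, comprised 7 genes, of which 4 were tested and 0 called by edgeR. Both well-expressed genes carried the description 3-ketoacyl-CoA thiolase 2, and their order turned at 24 HAP. Zm00001eb258950 had 74.7, 81.2 and 61.3 FPKM in SC, 55.3, 55.1 and 68.6 FPKM in pSC12, 77.0, 71.2 and 67.5 FPKM in pSC18, and 122, 139 and 141 FPKM in pSC24. Zm00001eb222320 had 108, 91.8 and 99.0 FPKM in SC, 98.6, 90.5 and 74.1 FPKM in pSC12, 83.8, 95.9 and 84.8 FPKM in pSC18, and 65.9, 94.7 and 77.2 FPKM in pSC24. The pSC24 libraries of Zm00001eb258950 lay above all others, whereas those of Zm00001eb222320 overlapped with every other stage.

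For Zm00001eb258950 the log2 fold change for pSC24 over pSC18 was 0.89 ± 0.13 (edgeR adjusted p = 0.00104) and for pSC24 over SC 0.88 ± 0.13 (edgeR adjusted p = 0.000348), short of the fold threshold in both. For Zm00001eb222320 it was -0.17 ± 0.15 (edgeR adjusted p = 0.514) and -0.34 ± 0.15 (0.108). The FPKM ratio of Zm00001eb258950 to Zm00001eb222320 was 1.85, 1.47 and 1.83 in pSC24, and between 0.562 and 0.926 in the other 9 libraries. The difference between these genes was not tested, and near-identical stretches could share reads.

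**Figure D3:**
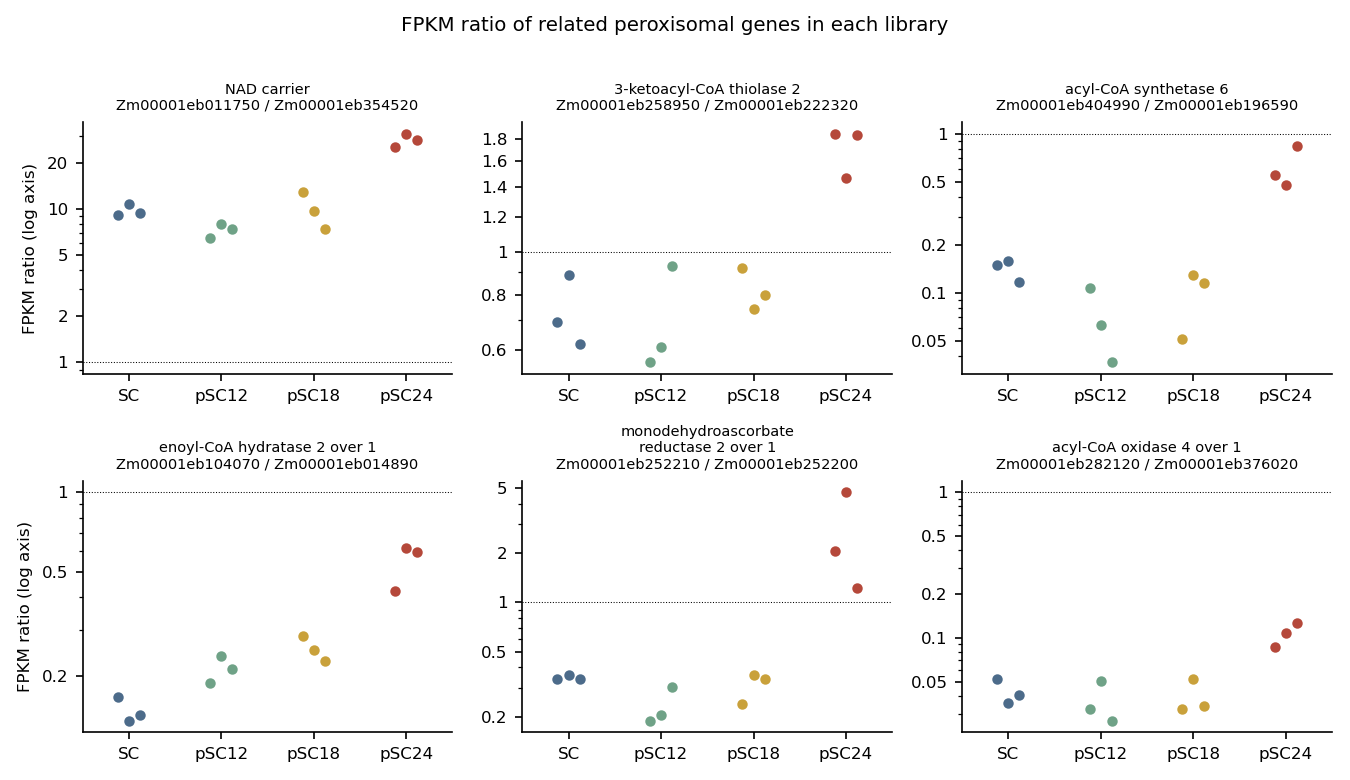
FPKM ratio of 6 pairs of related genes in each library, on a log axis, with stages from SC to pSC24 and a dotted line at 1. In all 6 pairs the 3 pSC24 libraries lie above the other 9, and the thiolase and monodehydroascorbate reductase ratios cross 1 only in pSC24; the pairs were picked after the values were seen.

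Carriers of the peroxisomal membrane were higher in sum at 24 HAP. The 5 carrier genes summed to between 179 and 280 FPKM in pSC24, against 86.7 to 113 FPKM in pSC18 and 76.2 to 92.2 FPKM in SC. Most of it came from the NAD carrier Zm00001eb011750 (chromosome 1, 38262525 to 38266698), a protein known in Arabidopsis to exchange NAD across the peroxisomal membrane. It had 58.1, 54.6 and 50.2 FPKM in SC, 42.3, 52.1 and 52.7 FPKM in pSC12, 64.2, 75.1 and 56.3 FPKM in pSC18, and 145, 240 and 202 FPKM in pSC24. The 3 pSC24 libraries were far above the others and spread widely, with replicate 1 lowest. The log2 fold change was 1.57 ± 0.18 for pSC24 over pSC18 (edgeR adjusted p = 0.000227) and 1.84 ± 0.18 for pSC24 over SC (edgeR adjusted p = 1.72e-05). It passed in every alternative with more than 1 pSC24 library and with any 1 library left out. Within the lower mapping-share set, which holds 1 pSC24 library, the values were 1.14 and 1.42.

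The other measured NAD carrier, Zm00001eb354520, stayed between 4.94 and 7.75 FPKM in all 12 libraries. The FPKM ratio of Zm00001eb011750 to it was 25.3, 30.9 and 28.2 in pSC24, and between 6.47 and 13 in the other libraries. Of the adenine nucleotide carriers, which bring ATP for fatty acid activation, Zm00001eb350910 had 19.2, 19.8 and 28.9 FPKM in pSC24, against 16.8, 11.4 and 10.5 FPKM in SC, a log2 fold change of 0.80 ± 0.24 (edgeR adjusted p = 0.0281) that fell short of the fold threshold.

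The glyoxylate cycle genes did not move together. Citrate synthase, glyoxysomal (Zm00001eb239300, chromosome 5, 152487429 to 152492192), which joins acetyl-CoA to oxaloacetate, had 44.6, 50.4 and 47.0 FPKM in SC, 41.5, 39.0 and 37.5 FPKM in pSC12, 43.5, 47.6 and 49.2 FPKM in pSC18, and 96.9, 123 and 129 FPKM in pSC24. The earlier 9 libraries lay in a narrow band and all 3 pSC24 libraries above it. The log2 fold change was 1.30 ± 0.12 for pSC24 over pSC18 (edgeR adjusted p = 0.000109) and 1.28 ± 0.12 for pSC24 over SC (edgeR adjusted p = 1.39e-05). It passed in every leave-one-out fit and in every alternative with more than 1 pSC24 library. Within the lower mapping-share set, which holds 1, the values were 1.04 and 1.03.

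Malate dehydrogenase, glyoxysomal, which turns malate and oxaloacetate into each other, was lower. Zm00001eb059070 had 7.48, 10.2 and 11.3 FPKM in pSC24, against 22.0, 22.4 and 20.7 FPKM in SC, with no overlap. It fell by 1.18 on the log2 scale (SE 0.19, edgeR adjusted p = 0.000554), by 0.96 under total-count scaling and by 1.54 within the lower mapping-share set. In pSC12 the level was already 11.6, 11.9 and 14.7 FPKM, and in pSC18 it was 12.3, 15.5 and 14.8 FPKM. The higher gene of the same description, Zm00001eb134330, had 40.7, 41.6 and 56.1 FPKM in pSC24, against 66.7, 62.1 and 64.6 FPKM in SC, a log2 fold change of -0.49 ± 0.15 (edgeR adjusted p = 0.0276) short of the fold threshold.

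The enzymes particular to the glyoxylate cycle were low or near 0. Isocitrate lyase (Zm00001eb323090) was at 0 FPKM in 11 of 12 libraries, and its highest value was 0.0425 FPKM. Malate synthase (Zm00001eb079170) had 3.20, 4.39 and 3.09 FPKM in SC, 8.74, 7.37 and 4.38 FPKM in pSC12, 3.19, 3.99 and 3.59 FPKM in pSC18, and 2.45, 4.75 and 3.20 FPKM in pSC24. It was not called in any of the 5 comparisons by edgeR. Among genes outside the set that belong to the path from lipid to sugar, 6 by description, 1 was tested. That phosphoenolpyruvate carboxykinase gene (Zm00001eb398370) had 6.41, 3.54 and 5.10 FPKM in pSC24, against 0, 0 and 2.20 FPKM in pSC18 and 0.0732, 0.334 and 0 FPKM in SC, and it was not called by edgeR in any comparison.

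Oxidases of 2-hydroxy acids oxidize substrates such as glycolate and release hydrogen peroxide. ZmGLO3 (Zm00001eb070280, chromosome 2, 9356706 to 9360966) was the highest of 7 such genes, of which 3 were tested. It had 16.7, 17.4 and 17.1 FPKM in SC, 11.8, 9.45 and 20.5 FPKM in pSC12, 9.02, 10.8 and 13.8 FPKM in pSC18, and 38.4, 29.0 and 33.5 FPKM in pSC24. The pSC24 libraries lay above all others, and the SC libraries were nearly equal. ZmGLO3 rose by a log2 fold change of 1.57 ± 0.26 in pSC24 against pSC18 (edgeR adjusted p = 0.00195). The call held in every leave-one-out fit and in every alternative with more than 1 pSC24 library. Within the lower mapping-share set, which holds 1, the value was 1.76. Over SC the value was 0.97 ± 0.25 (edgeR adjusted p = 0.0130), short of the fold threshold. The neighbouring gene described as GLO2 (Zm00001eb070270) averaged 0.634 FPKM over the 12 libraries, and GLO4 (Zm00001eb109300) averaged 1.04 FPKM in pSC24, against 1.32 FPKM in pSC18 and 2.64 FPKM in SC.

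The study named ZmGLO3 and genes for NAD import (ZmPXN), enoyl-CoA hydratase 2 (ZmECH2) and a thiolase (ZmKAT5) from these same libraries for their rise. It also named the lipase gene ZmSDP1 and ZmKCR1, a gene of very-long-chain fatty acid synthesis. Their values here are therefore not independent evidence of that direction.

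**Figure D4:**
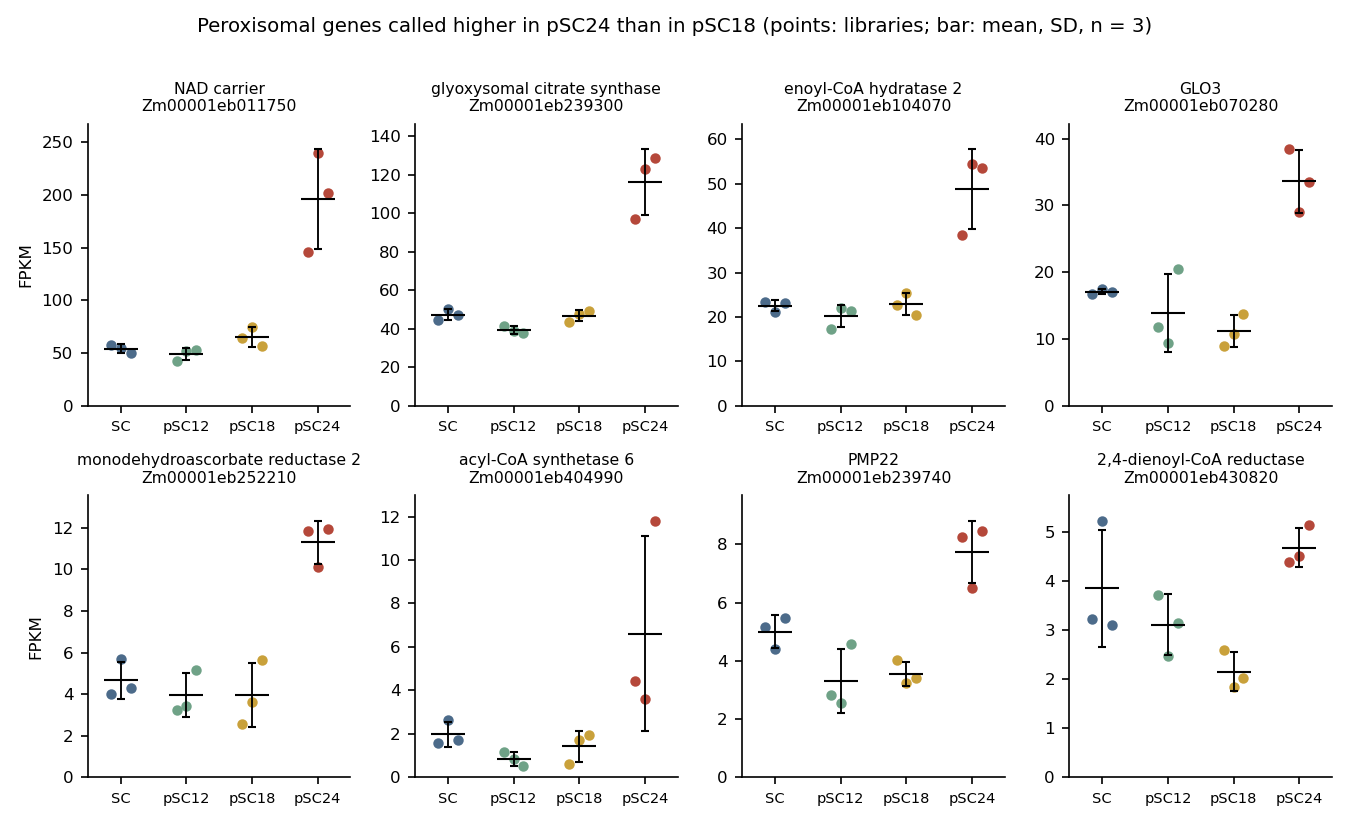
FPKM in each of the 12 libraries (points), with mean and SD (n = 3) as bars, for the 8 genes called higher in pSC24 than in pSC18; stages run from SC to pSC24 and each y axis starts at 0. In all 8 panels the pSC24 points lie above the pSC18 points, and only in the reductase does an SC library, at 5.23 FPKM, reach above the pSC24 libraries.

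Genes of hydrogen peroxide removal and the ascorbate system divided in direction. Monodehydroascorbate reductase 2 (Zm00001eb252210), which regenerates ascorbate, had 11.8, 10.1 and 11.9 FPKM in pSC24, against 2.59, 3.65 and 5.64 FPKM in pSC18 and 3.99, 5.67 and 4.32 FPKM in SC. The groups did not overlap. It rose by a log2 fold change of 1.5 ± 0.30 against pSC18 (edgeR adjusted p = 0.00579) and 1.27 ± 0.30 against SC (edgeR adjusted p = 0.00699). Within the lower mapping-share set the values were 1.56 (0.0886) and 1.34 (0.0760).

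The gene next to it on chromosome 5, monodehydroascorbate reductase 1 (Zm00001eb252200), had 5.77, 2.15 and 9.75 FPKM in pSC24, against 10.8, 10.2 and 16.6 FPKM in pSC18 and 11.8, 15.7 and 12.7 FPKM in SC. Against SC it fell by 1.20 on the log2 scale (SE 0.40, edgeR adjusted p = 0.0387). That call was lost in 7 of 12 leave-one-out fits, without any of the SC replicates, pSC12 replicates 1 and 2, or pSC24 replicates 1 and 2, where adjusted p ran from 0.0513 to 0.116 and the log2 fold change from -1.27 to -0.81. It was lost as well within the lower mapping-share set (-1.22, 0.0589), with a term for the set (-1.22, 0.229), on 6 libraries (-1.18, 0.0815) and under total-count scaling (-0.996, 0.0707). The ratio of reductase 2 to reductase 1 was 2.05, 4.71 and 1.22 in pSC24, and between 0.188 and 0.362 in the other libraries. Reads of neighbouring copies may be shared, so that the split between them is uncertain.

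The probable L-ascorbate peroxidase 3 (Zm00001eb419790), a membrane-bound enzyme that reduces hydrogen peroxide with ascorbate, had 61, 78 and 60 counts in pSC24, against 0, 0 and 7 counts in pSC18, 0 counts in pSC12 and 0, 2 and 0 counts in SC. The ratio of pSC24 to SC, from summed counts over size factors, was 68.7 with an exact Clopper-Pearson 95% interval of 18.8 to 571, which covers counting error only. The edgeR adjusted p was 0.0318, and the call was lost without SC replicate 1 (0.105) or 3 (0.107) and without pSC24 replicate 1 (0.0708), 2 (0.0758) or 3 (0.0637), within the lower mapping-share set (0.160) and with a term for the set (0.0896). Ascorbate peroxidase 4 (Zm00001eb202790) had 72.7, 87.6 and 113 FPKM in pSC24, against 63.8, 68.9 and 63.6 FPKM in pSC18 and 112, 110 and 111 FPKM in SC. Catalase 1 (Zm00001eb228570), outside the set and the only tested one of 4 catalase genes, had 105, 133 and 142 FPKM in pSC24, against 146, 165 and 145 FPKM in SC, and was not called by edgeR.

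Auxiliary enzymes act on fatty acids with double bonds. A 2,4-dienoyl-CoA reductase (Zm00001eb430820) had 4.40, 4.52 and 5.15 FPKM in pSC24, against 2.60, 1.84 and 2.03 FPKM in pSC18. It rose by a log2 fold change of 1.11 ± 0.33 (edgeR adjusted p = 0.0388), but this was lost on leaving out any of the 3 pSC18 or 3 pSC24 libraries, with adjusted p of 0.0511 to 0.103 and log2 fold changes of 1.04 to 1.31. It was also lost within the lower mapping-share set (1.02, 0.333), with a term for the set (1.02, 0.251), on 6 libraries (1.14, 0.0761) and without the filter on low counts (1.11, 0.0853). Over SC its log2 fold change was 0.27 ± 0.32 (edgeR adjusted p = 0.591). The higher gene of the same description, Zm00001eb070900, had 14.7, 16.8 and 16.9 FPKM in pSC24, against 14.0, 11.1 and 10.3 FPKM in pSC18 and 16.3, 12.6 and 13.8 FPKM in SC, and was not called. The dienoyl-CoA isomerase Zm00001eb363960 had 4.86, 7.59 and 9.06 FPKM in SC, 2.60, 1.57 and 1.13 FPKM in pSC12, 2.25, 1.84 and 1.84 FPKM in pSC18, and 2.15, 2.48 and 1.80 FPKM in pSC24. Its 9 later libraries lay under all 3 SC libraries.

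The isomerase fell by 2.01 on the log2 scale in pSC12 against SC (SE 0.39, edgeR adjusted p = 0.0123), by 1.86 in pSC18 against SC (SE 0.39, edgeR adjusted p = 0.0120) and by 1.75 in pSC24 against SC (SE 0.39, edgeR adjusted p = 0.00496). These comparisons share the SC libraries. The pSC12 call was lost without SC replicate 2 (-1.98, 0.0517), SC replicate 3 (-1.82, 0.0635) or pSC12 replicate 2 (-1.93, 0.0569), and the pSC18 call without SC replicate 3 (-1.66, 0.0645). With a term for the mapping-share set the pSC12 call (-1.99, 0.28) and the pSC24 call (-1.74, 0.0851) were lost. Over pSC18 the pSC24 value was 0.11 ± 0.38 (edgeR adjusted p = 0.894). Within the lower mapping-share set the pSC18 value was -1.85 (0.0167) and the pSC24 value -1.74 (0.0638).

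Peroxisome biogenesis was the largest role with 36 genes, 33 of them tested. In pSC24 against pSC18, 1 was called higher and 0 lower by edgeR, beside 4.82% and 3.26% of all tested genes. In pSC24 against SC 0 were called in either direction by edgeR, beside 10.3% higher and 7.57% lower of all, with a median log2 fold change of 0.17 over the 33. The highest gene of the whole set, a PEX14 gene (Zm00001eb356320, chromosome 8, 139033519 to 139037507) whose product forms part of the docking site for the import receptors, had 477, 467 and 449 FPKM in SC, 333, 377 and 331 FPKM in pSC12, 334, 323 and 300.3 FPKM in pSC18, and 223, 232 and 261 FPKM in pSC24. SC lay above all later libraries and pSC24 below all earlier ones. Its log2 fold change was -0.97 ± 0.09 for pSC24 over SC (edgeR adjusted p = 1.68e-05) and -0.54 ± 0.09 for pSC18 over SC (edgeR adjusted p = 0.00430), past the adjusted p and short of the fold threshold.

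A low PEX14 gene (Zm00001eb126680) took the other direction. It had 11.3, 8.55 and 5.31 FPKM in pSC18, against 4.30, 2.38 and 1.61 FPKM in SC, without overlap. It rose by a log2 fold change of 1.60 ± 0.41 (edgeR adjusted p = 0.0296), and the call was lost without SC replicate 2 (1.49, 0.121), SC replicate 3 (1.32, 0.131), pSC18 replicate 1 (1.32, 0.118) or pSC18 replicate 2 (1.56, 0.0798). A refit on the lower mapping-share set alone gave 1.61 (0.0601). PEX4 (Zm00001eb185530), the ubiquitin-conjugating enzyme that recycles the import receptor, had 7.04, 11.3 and 10.4 FPKM in pSC18, against 17.3, 24.5 and 16.4 FPKM in SC. It fell by 1.01 on the log2 scale (SE 0.24, edgeR adjusted p = 0.0215), and the call was lost without SC replicate 2 (-0.82, 0.0997) or pSC18 replicate 1 (-0.85, 0.0762), under total-count scaling (-0.81, 0.0480) and on 6 libraries (-0.995, 0.0320). On the lower set alone it lay at the fold threshold (adjusted p = 0.0479).

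The membrane protein PMP22 gene Zm00001eb239740 was the called biogenesis gene of the last step. It had 8.25, 6.51 and 8.45 FPKM in pSC24, against 4.03, 3.23 and 3.40 FPKM in pSC18. It rose by a log2 fold change of 1.11 ± 0.29 (edgeR adjusted p = 0.0243), and the call was lost without pSC18 replicate 2 (1.09, 0.0683), pSC18 replicate 3 (1.07, 0.0700), pSC24 replicate 1 (1.06, 0.0630) or pSC24 replicate 3 (1.05, 0.0692), within the lower mapping-share set (1.20, 0.127), with a term for the set (1.21, 0.12) and without the filter on low counts (1.11, 0.0512). PEX13 (peroxisomal membrane protein 13, Zm00001eb059960), another docking protein and among the 5 highest genes, had 138, 151 and 154 FPKM in pSC24, against 109, 124 and 104 FPKM in pSC18, a log2 fold change of 0.38 ± 0.11 (edgeR adjusted p = 0.0299) below the fold threshold. The receptor PEX5 (Zm00001eb034080), named after its values were seen, had 29.7, 29.9 and 31.6 FPKM in pSC24, against 51.2, 40.1 and 44.1 FPKM in pSC18, and its log2 fold change was -0.58 ± 0.11 (edgeR adjusted p = 0.00429). PEX16 (Zm00001eb208530), which takes part in membrane protein insertion and was likewise named after its values were seen, had 43.1, 59.5 and 49.2 FPKM in pSC24, against 27.7, 32.9 and 25.3 FPKM in SC, a log2 fold change of 0.81 ± 0.19 (edgeR adjusted p = 0.00616).

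LON2, the protease that degrades proteins of the peroxisomal matrix, was lower at 24 HAP at both of its genes. Zm00001eb103510 had 13.1, 12.3 and 13.8 FPKM in SC, 10.2, 14.5 and 9.53 FPKM in pSC12, 6.95, 9.85 and 5.81 FPKM in pSC18, and 4.41, 4.47 and 5.29 FPKM in pSC24. Zm00001eb319680 had 8.55, 5.44 and 8.12 FPKM in pSC24, against 17.9, 17.8 and 13.7 FPKM in SC. The pSC24 libraries lay under all SC libraries for both genes.

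In pSC24 against SC, Zm00001eb103510 fell by 1.48 (SE 0.22, edgeR adjusted p = 0.000320) and Zm00001eb319680 by 1.17 (SE 0.21, edgeR adjusted p = 0.00138) on the log2 scale. The call of Zm00001eb103510 held in all leave-one-out fits and in all alternatives with more than 1 pSC24 library. Within the lower mapping-share set, which holds 1, the value was -1.57. Zm00001eb319680 slipped to -0.99 without pSC24 replicate 2 and to -0.95 under total-count scaling, both short of the fold threshold. It had -0.94 within the lower mapping-share set and -0.95 (0.0619) with a term for the set.

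The mevalonate pathway makes the building block of isoprenoids, and 1 of its genes in the set was called. Diphosphomevalonate decarboxylase MVD2 (Zm00001eb257840, chromosome 5, 222050205 to 222054393) had 177, 177 and 179 FPKM in SC, 155, 145 and 128 FPKM in pSC12, 122, 126 and 127 FPKM in pSC18, and 82.6, 87.3 and 95 FPKM in pSC24. SC lay above and pSC24 below every other library. It fell by 1.02 on the log2 scale in pSC24 against SC (SE 0.10, edgeR adjusted p = 1.61e-05), and its size dropped just under the fold threshold, to between -0.998 and -0.981, without SC replicate 1 or 3, pSC18 replicate 1 or 2, or pSC24 replicate 1, to -0.996 on 6 libraries and to -0.80 under total-count scaling. The lower mapping-share set alone gave -1.11. The other MVD2 gene (Zm00001eb056620) had a log2 fold change of -0.67 ± 0.10 (edgeR adjusted p = 0.000487). Neither gene for the phosphomevalonate kinase, the enzyme before it in the pathway, was called: Zm00001eb010900 had 28.7, 44.0 and 48.8 FPKM in pSC24, against 40.8, 45.7 and 36.3 FPKM in SC, with overlap. The lower kinase gene Zm00001eb398490 had 2.84, 2.65 and 2.54 FPKM in pSC24, against 2.18, 1.90 and 2.06 FPKM in SC, without overlap, and a log2 fold change of 0.37 ± 0.29 (edgeR adjusted p = 0.377).

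The description term malate synthase also caught 7 genes for 2-isopropylmalate synthase, enzymes of leucine synthesis in the plastid. The highest of them, Zm00001eb093160, had 2.79, 1.88 and 1.18 FPKM in pSC24, against 1.48, 1.95 and 1.76 FPKM in SC, and 0 of the 4 tested were called by edgeR in any comparison. Without these 7 genes the counts of called genes were the same in all 5 comparisons, and the median log2 fold change for pSC24 over SC was 0.01 over 90 tested genes.

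Genes of lipid metabolism outside the set were given as background lists. The study named ZmSDP1 and ZmKCR1 for their rise in these same libraries, so a rise of such genes here is not independent evidence. The triacylglycerol lipase SDP1, which releases fatty acids from oil bodies, was listed after its values were seen, since its description did not match the term for it. Of 6 SDP1 genes 3 were tested, and Zm00001eb062080 had 31.9, 26.8 and 33.3 FPKM in pSC24, against 4.95, 3.84 and 7.40 FPKM in pSC18 and 5.06, 5.79 and 4.07 FPKM in SC. The groups did not overlap. It rose by a log2 fold change of 2.49 ± 0.23 against pSC18 (edgeR adjusted p = 0.000109) and 2.61 ± 0.23 against SC (edgeR adjusted p = 9.60e-06). The other tested SDP1 genes were not called. Zm00001eb370460 had -0.60 ± 0.37 over pSC18 and 0.07 ± 0.37 over SC (edgeR adjusted p = 0.324 and 0.914). Zm00001eb212260 had 1.75 ± 1.13 and 0.29 ± 1.09 (edgeR adjusted p = 0.349 and 0.881).

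Oleosins are coat proteins of oil bodies. Of 8 genes 2 were tested, and both were called lower in pSC24 than in SC, beside 7.57% of all tested genes. Oleosin 16.4 kDa (Zm00001eb382400) had 70.6, 28.6 and 118 FPKM in pSC24, against 132, 150 and 198 FPKM in SC, a log2 fold change of -1.16 ± 0.37 (edgeR adjusted p = 0.0330).

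Acyl-CoA synthetases outside the set numbered 14, with 12 tested. In pSC24 against SC 3 were called higher and 0 lower by edgeR, beside 10.3% and 7.57% of all tested genes, and in pSC24 against pSC18 2 were called higher and 0 lower, beside 4.82% and 3.26%. Elongation genes for very long chain fatty acids numbered 47, with 12 tested, and 3 were called higher in pSC24 than in SC and 0 lower, beside the same 10.3% and 7.57%. They included very-long-chain 3-oxoacyl-CoA reductase 1 (Zm00001eb246270) with 17.0, 17.9 and 17.1 FPKM in pSC24, against 3.26, 6.18 and 7.45 FPKM in pSC18. Another gene of that description, Zm00001eb183950, had a log2 fold change of 0.18 ± 0.14 over pSC18 (edgeR adjusted p = 0.449). Over pSC18, 6 of the 12 tested elongation genes were above 0, with a median of -0.01. Their list summed to between 80.8 and 91.1 FPKM in pSC24, against 71.6 to 81.5 FPKM in pSC18, with overlap. Of 4 further enoyl-CoA hydratases, all tested, 0 were called by edgeR in any comparison.

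Closing steps of jasmonate synthesis are rounds of peroxisomal beta-oxidation. The jasmonate list held 23 genes outside the set, described as 12-oxophytodienoate reductases or allene oxide enzymes, with 11 tested. Which of these reductases act in jasmonate synthesis was not tested. In pSC24 against SC 4 were called higher and 0 lower by edgeR, beside 10.3% and 7.57% of all tested genes. The 4 were described as 12-oxophytodienoate reductase 1 (Zm00001eb373030 and Zm00001eb131870), 7 (Zm00001eb177330) and 11 (Zm00001eb082050). In pSC24 against pSC18 2 were called higher and 1 lower, beside 4.82% and 3.26%. The lower gene was allene oxide cyclase (Zm00001eb020680), with a log2 fold change of -4.66 ± 1.44 (edgeR adjusted p = 0.0490). No tested allene oxide synthase was called in either comparison. Summed over the 23 genes the level was 395 to 415 FPKM in pSC24, against 116 to 211 FPKM in pSC18 and 64.4 to 132 FPKM in SC. Amine and sulfite oxidation, with 24 genes and 10 tested, had 1 called higher and 2 lower in pSC24 than in SC, beside 10.3% and 7.57% of all. A sulfite oxidase gene (Zm00001eb129230), an enzyme of plant peroxisomes, had 167, 150 and 223 FPKM in SC, 75.4, 76.1 and 71.4 FPKM in pSC12, 56.3, 67.3 and 42.7 FPKM in pSC18, and 19.8, 10.5 and 29.9 FPKM in pSC24. It fell by 3.19 on the log2 scale in pSC24 against SC (SE 0.32, edgeR adjusted p = 2.20e-05), with no overlap between any later stage and SC.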

How the data were processed

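RNA from 12 libraries (SC, pSC12, pSC18 and pSC24, 3 each) was counted per gene. The authors trimmed reads with Cutadapt 1.15 and in-house scripts, aligned them with HISAT2 2.0.5 to the B73 reference (Zm-B73-REFERENCE-NAM-5.0) and deposited fragment counts from featureCounts 1.5.0-p3. The authors also deposited FPKM, which equal counts over gene length, size factor and mean library total (largest relative difference 3.06e-07). Strand and multi-mapping settings are not given in the sources used here, so neighbouring, antisense and near-identical genes are uncertain. Gene descriptions in the deposited table are best protein matches, often from Arabidopsis or rice. The members and lists were chosen with earlier results of these data known.

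Counts as deposited were fitted with edgeR 4.0.16 (R 4.3.3; TMM, filterByExpr, glmQLFit, stage as only term, 12 libraries), with Benjamini-Hochberg adjustment and the calling rule given above. SE is the log2 fold change over the root of F. Where a bracket gives a value and then a p, both come from the named refit and the p is adjusted. The fit was tested on simulated data. Alternatives were DESeq2 1.42.0 on 12 or 6 libraries, its size factors, total-count scaling, other filters, a replicate block, a term for mapping-share set, 6 libraries, no fold threshold and each library left out. A fit on the 7 libraries of the lower set was added after seeing the data. It holds 1 pSC24 library, so its p-values for pSC24 carry no spread among pSC24 libraries. A pass or a loss of a pSC24 call in that fit therefore carries little weight. The term for mapping-share set is estimated within pSC24 and is not a separate check. Genes were named by a rule (called, the 5 highest, and the highest of each role), with ZmGLO3. Other genes given with values fell outside that rule, such as acetyl-coenzyme A synthetase Zm00001eb242380, acyl-coenzyme A oxidase 4 and thiolase Zm00001eb258950. They are examples and were not drawn by rule. Labels call the 3 libraries of a stage replicates, and the methods call them independent preparations.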

Additional observations from a re-analysis of the deposited data

How the results depend on the processing

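None of the 27 calls of single genes changed direction under any alternative, and 6 passed in all of them and in every leave-one-out fit: the NAD carrier Zm00001eb011750 and citrate synthase Zm00001eb239300 in pSC24 against pSC18 and SC, ZmGLO3 against pSC18 and LON2 Zm00001eb103510 against SC. Among the alternatives, the fit within the lower mapping set holds 1 pSC24 library, so its p carries no spread among pSC24 libraries. The calls of monodehydroascorbate reductase 2 (Zm00001eb252210) in pSC24 against pSC18 and SC were lost in that fit only. Counts of called genes moved as follows. In pSC24 against pSC18, 8 higher became 4 with a mapping-set term, where all tested genes called higher went from 1019 to 403. In the same comparison 0 lower became 2 with DESeq2 on 12 libraries and 6 with no fold threshold, where all genes went from 689 to 940 and 1511. In pSC24 against SC, 7 higher became 15 under total-count scaling and 12 with no fold threshold, where all tested genes went from 2170 to 2911 and 3042. The 7 lower became 2 under total-count scaling and 16 with no fold threshold, where all went from 1600 to 1118 and 2728. In pSC12 against SC, 0 higher became 3 under total-count scaling and 2 with no fold threshold, where all tested genes went from 343 to 979 and 623. The 2 lower became 0 with a mapping-set term and 5 with no fold threshold, where all went from 249 to 27 and 558. In pSC18 against pSC12, 0 higher became 1 with DESeq2 on 12 libraries, where all genes went from 4 to 339. In pSC18 against SC, 1 higher became 2 with DESeq2 on 12 or 6 libraries and under total-count scaling and 0 within the lower mapping set. All genes called higher then went from 572 to 885, 849, 987 and 493. The 2 lower became 1 under total-count scaling or with edgeR on 6 libraries and 8 with no fold threshold. All genes called lower then went from 338 to 220, 482 and 866. The cause was not tested.

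With 1 library left out, the counts ran from 5 to 8 (higher) and 0 to 1 (lower) in pSC24 against pSC18, from 5 to 8 and 4 to 8 in pSC24 against SC, 0 and 0 to 2 in pSC12 against SC, and 0 to 1 and 1 to 3 in pSC18 against SC. The lowest counts came without pSC24 replicate 3 (5 higher against pSC18), pSC24 replicate 1 or 2 (4 lower against SC), SC replicate 2 or pSC12 replicate 2 (0 lower in pSC12), and SC replicate 3, pSC18 replicate 1 or 2 (0 higher in pSC18). All tested genes called in the same direction fell in each of these fits as well, as from 1019 to 686 in the first. In 18 pairs of libraries with the same replicate number the correlation of deviations ran from -0.0606 to 0.095, so the numbers did not pair the samples. With a replicate block the counts were 7 higher and 0 lower in pSC24 against pSC18, 8 and 7 in pSC24 against SC, 0 and 2 in pSC12 against SC, 0 and 0 in pSC18 against pSC12, and 1 and 2 in pSC18 against SC, and the calls of Zm00001eb419790 over SC (adjusted p = 0.0536) and Zm00001eb430820 over pSC18 (0.0639) were lost. ZmGLO3, not called in those steps, turned to 0.0047 and 0.023 for pSC12 over SC under total-count scaling and with a mapping-set term, and for pSC18 over pSC12 ran from -0.54 to 0.065 with 1 library left out, the highest without pSC12 replicate 3. Genes with too few counts for the filter were not tested, so nothing can be read for them at this depth, and some calls near the fold threshold were lost on fold size alone, such as MVD2 Zm00001eb257840.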
